A study of Mus musculus with 3 samples.

Results

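A small group of 80 cells with the transcripts of fibroblasts was present among 14302 barcodes from the pancreas of mice given PBS or WGP. WGP are whole beta-glucan particles made from the yeast Saccharomyces cerevisiae. Wild-type C57BL/6J mice, male and female and 6 to 8 weeks old by the study's methods, received PBS or a single intraperitoneal dose of WGP either 3 or 7 days before the pancreas was taken. The pancreas was digested, live CD45+ cells were sorted, and 1 droplet library of single-cell 3' RNA was made for each of the 3 groups, called here PBS, 3-day WGP and 7-day WGP. The labels give neither the number nor the sex of the mice behind a library, and no group carried a transgene, deletion or other treatment. CD45, encoded by Ptprc, is a leukocyte protein, so the gate selects against the cells described here. Ptprc had at least 1 UMI, a molecule counted once, in 5 of the 80 cells. The count of these cells therefore measures what passed the sort and not their number in the tissue.

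Fibroblasts are the connective tissue cells that secrete the collagens, proteoglycans and elastic fibres on which the ducts, acini and vessels of the pancreas rest. Besides building matrix, they release chemokines, complement proteins and growth factors, and they respond to interferons and to inflammatory cytokines. Different fibroblasts occupy different places: adventitial fibroblasts, marked by genes such as Pi16, Dpp4 and Ly6c1, surround larger vessels and ducts, and mesothelial cells, which line the surface of the organ, share several matrix genes with them.

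Cells were selected by what was measured in them. A barcode was kept if it had at least 1000 UMIs and at most 30% of them from mitochondrial genes. It was a member if at least 3 of the 5 genes Col1a1, Col3a1, Dcn, Pdgfra and Lum had a UMI, with at least 5 UMIs in sum, and if Csf1r, Cd79a, Cd3e, Cd3d and Cdh5 all had none. The sum of the 5 markers was 5 at its lowest, 336 at the median and 1891 at its highest, and 54 members had all 5 markers. Only 1 member had a sum from 5 to 9. Just outside stood 1 barcode with at least 3 markers and a sum of 3 or 4, and 1 with 2 markers and a sum of 7. The marker part of the rule was met by 106 barcodes, of which 26 were left out, 16 of them for a Csf1r UMI, 8 for Cd79a and 3 for Cd3e or Cd3d. No doublet caller was run, and mixtures with leukocytes were addressed only by the 5 genes required to be absent and by an alternative without barcodes of mixed markers. Of all barcodes kept, 15 occurred in more than 1 library, none of them a member. Since the values chose the cells, the levels of marker and matrix genes below are descriptions.

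The libraries held 32 members of 5249 barcodes in PBS (0.610%, exact 95% interval 0.417% to 0.860%), 32 of 4879 in 3-day WGP (0.656%, 0.449% to 0.925%) and 16 of 4174 in 7-day WGP (0.383%, 0.219% to 0.622%). The 3 intervals overlapped. With 1 library per group there is no replicate and no test of any difference between groups, and every interval given here covers counting error only. Members were deeper than the other barcodes: their median was 12488 UMIs in PBS, 8979 at 3 days and 14785 at 7 days, and they ranged from 1092 to 49088. The deepest cells were not spread evenly. No PBS member, 2 3-day members and 6 7-day members had at least 30000 UMIs. Values without these 8 cells are given below for some, but not all, of the genes and lists described by library. The libraries held 48219246 to 56849043 UMIs over all barcodes.

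**Figure D1:**
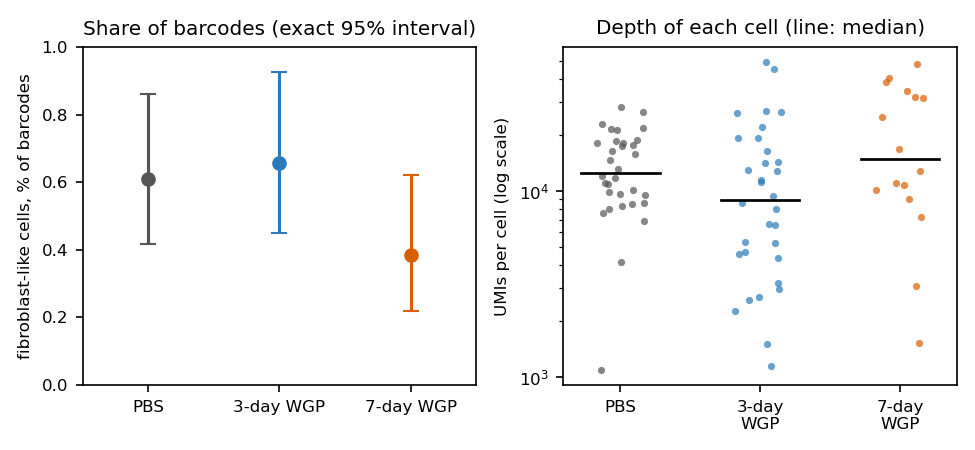
Left, fibroblast-like cells as a percent of all barcodes kept, with exact 95% intervals, for the PBS, 3-day WGP and 7-day WGP libraries. Right, UMIs of each cell on a log scale with a line at the median: the 3 intervals overlap, and the 7-day library has 6 of its 16 cells at 30000 UMIs or more, against none in PBS.

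The sexes were mixed differently in the 3 libraries. Among members, 25 of 32 in PBS had only Xist UMIs, transcribed in female cells, and 4 had only UMIs of 4 Y-linked genes. In 3-day WGP the numbers were 5 and 17 of 32, and in 7-day WGP 2 and 10 of 16, with 1 cell holding both. Treatment and the sex of the cells therefore cannot be told apart in these libraries, and comparisons within cells of one kind rest on 4 PBS cells or on 2 7-day cells.

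The label was checked on genes that the rule did not use. All 12 of 12 other fibroblast markers were at least 2-fold higher in members than in all other barcodes, on the scale of log2(CPM + 10) used throughout, where CPM are UMIs per 1000000 UMIs of the summed cells. This comparison had a high background, since 26.3% of 7057 genes with at least 20 member UMIs were at least 2-fold higher in members and 3.12% were at least 2-fold lower. After thinning each cell to 1000 UMIs, Dpt was detected in 52.5% of members and 0.0233% of B cell barcodes. The median depth before thinning was 11636.5 UMIs in members and 6152 in B cell barcodes, which should lack the gene.

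Markers of several other cell types were near 0. Of 1188712 member UMIs, 2 belonged to the 6 islet markers, 8 to the 6 neutrophil markers, 41 to the 6 ductal markers, 67 to the 8 endothelial markers and 101 to the 10 acinar markers. The 7 pericyte markers had 180 UMIs, with Rgs5 and Higd1b at 0, and the 7 stellate cell markers had 842, with Gfap, Lrat and Reln at 0. At least 1 B cell marker UMI was found in 76 of 80 members, a pan-leukocyte UMI in 48 and a macrophage UMI in 36. By a rule of at least 2 markers of another cell type with at least 3 UMIs in sum, 59 members were mixed, 49 of them by B cell markers. The B cell list includes Cd74, described below as a class II gene, with 554 of the 575 B cell marker UMIs of 7-day members. It also includes Igkc, which is abundant in free RNA. For the B cell list, the rule thus counts these transcripts as well. Pan-leukocyte markers marked 16 members and macrophage markers 12, and a mixture of cells was not tested. With the B cell list not used, 58 members were left. Single cells held part of these UMIs. Of the 109 T and NK cell UMIs in all members, 103 were in 1 PBS cell, 83 of them Gzma, a granule protease of cytotoxic lymphocytes. Likewise 1 PBS cell held 60 of the 266 pan-leukocyte UMIs and 1 held 47 of the 152 macrophage UMIs. Of the 1608 B cell marker UMIs in all members, 401 were in 1 3-day cell, 332 of them Igkc. By summed level, the 8 macrophage markers were at 165 CPM in PBS, 58.9 at 3 days and 162 at 7 days.

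Mesothelial markers split the members. The 6 such genes that were counted were Msln, Upk3b, Upk1b, Lrrn4, Gpm6a and Nkain4, a choice made after the values were seen. They were absent from 52 members, and 21 members had at least 3 of them, with only 7 cells between 0 and 3. These 21 cells were 7 of 32 PBS members, 8 of 32 at 3 days and 6 of 16 at 7 days, which is 21.9% (9.28% to 40.0%), 25% (11.5% to 43.4%) and 37.5% (15.2% to 64.6%). They had Dcn and Col3a1 like the rest, at 10498 and 6419 CPM against 12745 and 12575 in the other 59. They differed in much else. Krt19, a simple epithelial keratin that is not among the 6, was at 666 CPM against 1.23. Upk3b, a membrane protein of mesothelium, was at 573 against 0, and Lrrn4 at 347 against 0. Both are among the 6 genes that chose the 21 cells, so their difference follows from the choice. Genes that the 59 others had at high levels were scarce in the 21. Dpt, dermatopontin, which binds decorin and collagen, was at 10.6 CPM against 2073. Pi16 was at 7.96 against 1243, Mmp2, a gelatinase, at 2.65 against 636, and Lum, a proteoglycan of collagen fibrils, at 21.2 against 1265. Ccl11, the eosinophil chemokine eotaxin, had no UMI in the 21 cells and was at 736 CPM in the 59, and the transcription factor Ebf1 was at 0 against 601. The name fibroblast-like is thus used here for 80 cells of which 21 also had mesothelial transcripts, and values without those 21 cells are given for several of the lists and genes below.

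**Figure D2:**
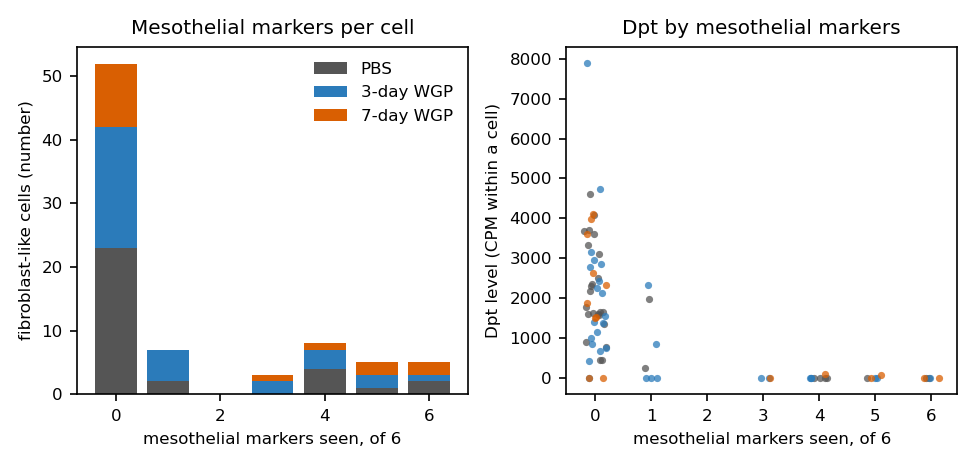
Left, number of fibroblast-like cells by how many of 6 mesothelial markers they held, stacked by library: 52 cells held none and 21 held 3 or more. Right, the level of Dpt within each cell (CPM) against the same count: cells with 3 or more mesothelial markers have almost no Dpt.

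Matrix genes were higher in members than elsewhere. All 6 measured fibrillar collagens, all 11 network and associated collagens, all 8 small leucine-rich proteoglycans and all 14 elastic fibre genes were at least 2-fold higher in members than in other barcodes, with median log2 differences of 6.60, 4.50, 5.15 and 4.49 against 0.34 over all 7057 genes. These lists hold 4 genes of the rule, Col1a1, Col3a1, Dcn and Lum, and the members were chosen from these values. Levels of different genes are read here from 3' ends, 1 count per molecule, and are not divided by transcript length. Col1a2, a chain of type I collagen, was at 4799 CPM (4676 to 4926) and 15.6 CPM elsewhere. Sparc, a collagen-binding glycoprotein, was at 6704 against 29.1. Fbn1, the main component of microfibrils, was at 1391 against 2.66, and Gsn, an actin-severing protein that is also secreted, at 7622 against 85.6.

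The 15 genes with the largest difference from other barcodes, apart from those of the rule, were led by matrix and secreted proteins. Serpinh1, the collagen chaperone HSP47, differed by 6.61 on the log2 scale, Ogn, a proteoglycan also called osteoglycin, by 6.41, Efemp1, fibulin 3, by 6.32, Mfap5, a microfibril protein, by 6.37 and Igfbp6, which binds insulin-like growth factors, by 6.47. Clec3b, the plasminogen-binding protein tetranectin, differed by 6.58, Fstl1 by 6.37 and Dpt by 6.76. Serping1, the inhibitor of complement C1, differed by 6.77. Enpp2, the enzyme autotaxin that makes lysophosphatidic acid, differed by 6.27. Cxcl13, the chemokine that attracts B cells to follicles, differed by 7.47, but its UMIs came from few cells, as given below.

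Several signals to leukocytes were higher in members than elsewhere. Of 12 measured chemokines, 10 were at least 2-fold higher than in other barcodes, and all 10 complement genes were. Ccl11 was at 502 CPM in members and 0.678 elsewhere, and Cxcl12, the ligand of CXCR4, at 516 and 7.76. Il33, an alarmin of the interleukin-1 family, was at 278 against 1.18 CPM, and was detected in 21.2% of thinned members against 0.0233% of thinned B cell barcodes. In the single libraries it was at 256 CPM (212 to 308) in PBS, 292 CPM (242 to 349.7) at 3 days and 291 CPM (236 to 356) at 7 days, with intervals that overlapped. Csf1, the growth factor of macrophages, was at 181, 204 and 159 CPM, also with overlapping intervals. C3, the central complement component, was at 6429.6 CPM against 142 elsewhere.

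The comparison of 7-day WGP with PBS asks how these cells stood 7 days after the particles were given. In the summed members, genes induced by interferons and genes of MHC class I presentation were higher, as were a few acute-phase and chemokine genes. Genes of adventitial fibroblasts and several matrix genes were lower. At the threshold of a 2-fold difference, 5.37% of 5512 genes were higher in 7-day WGP and 7.64% were lower. For 3-day WGP the background was 3.12% higher and 3.1% lower of 5896 genes.

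Of the 21 measured interferon-stimulated genes, 17 were at least 2-fold higher in 7-day WGP than in PBS and none was at least 2-fold lower, with a median log2 difference of 2.16 against -0.10 over all genes. The interferon-induced GTPases attack the membranes of vacuoles that hold pathogens. Iigp1, one of them, was at 156 CPM (122 to 197) in PBS, 184 CPM (145 to 231) at 3 days and 1917 CPM (1771 to 2072) at 7 days. Igtp was at 35.7, 41.7 and 502 CPM (429 to 584). Gbp2, a guanylate-binding protein, was at 158, 120.3 and 998 CPM (893 to 1111). For all 3 genes the 7-day interval lay above those of the other libraries. Bst2, called tetherin, was at 316, 334 and 892, and Isg15, a ubiquitin-like protein, at 71.3, 101 and 385. Without the cells of at least 30000 UMIs the 7-day log2 difference was 3.07 for Iigp1 and 2.52 for Igtp, but 1.08 for Gbp2, 0.47 for Isg15 and -0.04 for Bst2. Cxcl9 and Irf1 were among the 4 that did not pass 2-fold. Cxcl9, a ligand of CXCR3, had 310 UMIs in PBS, all in 1 cell, and 201 in 7-day WGP from 6 cells.

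Promoters are printed for interferon-induced GTPases that were chosen on both sequence and level. Each had, within 150 bases before the start, a sequence of the kind that interferon regulatory factors bind. Each was also at least 2-fold higher than PBS at 7 days, and at most 4 were kept, in order of member UMIs. Below are the 150 bases before the start of Gbp2, Igtp, Gbp7 and Irgm1 in RefSeq, on the strand of the gene, in build GRCm38.p6. Capitals mark a match, on either strand, to GAAA followed by any 2 bases and a further GAAA, the core of the interferon-stimulated response element. The windows are chr3:142620513-142620662 (plus strand) for Gbp2, chr11:58199406-58199555 (plus) for Igtp, chr3:142530186-142530335 (plus) for Gbp7 and chr11:48871421-48871570 (minus) for Irgm1.
Gbp2: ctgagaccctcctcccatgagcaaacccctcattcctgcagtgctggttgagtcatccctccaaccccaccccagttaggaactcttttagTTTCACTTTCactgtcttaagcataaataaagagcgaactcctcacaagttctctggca
Igtp: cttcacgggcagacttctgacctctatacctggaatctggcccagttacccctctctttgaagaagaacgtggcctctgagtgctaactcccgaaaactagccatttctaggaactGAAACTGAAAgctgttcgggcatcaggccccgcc
Gbp7: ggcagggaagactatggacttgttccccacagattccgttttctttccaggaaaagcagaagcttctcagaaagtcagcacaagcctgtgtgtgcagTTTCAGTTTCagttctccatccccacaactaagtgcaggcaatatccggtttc
Irgm1: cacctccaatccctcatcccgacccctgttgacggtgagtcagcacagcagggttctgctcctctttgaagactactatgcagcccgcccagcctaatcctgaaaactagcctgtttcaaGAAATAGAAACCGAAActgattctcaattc
The first match begins 59 bases before the start of Gbp2, 34 before Igtp, 53 before Gbp7 and 30 before Irgm1, where overlapping matches run together. A RefSeq promoter was found for 18 of the 24 listed interferon-stimulated genes, and 12 of these (66.7%) had this motif on either strand within 250 bases before the start. Over all 27025 promoters the motif was in 3.04%, and in 2 of 11 MHC class I genes. A match describes the letters of the window and does not show that a factor was bound. The 4 genes printed were at 2.58, 3.49, 2.38 and 2.26 log2 over PBS at 7 days, and at -0.37, 0.18, 0.02 and 0.79 at 3 days. Their 7-day values were past 2-fold by the choice of genes and say nothing about the motif.

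The difference in interferon-stimulated genes was present in most of the 16 7-day cells. Summed over the list, a PBS cell held from 510.4 to 19019.8 CPM with a median of 2515, a 3-day cell from 0 to 6640.4 with 1513, and a 7-day cell from 2104 to 27656 with 7052. Of the 16 7-day cells, 15 were above the PBS median and 2 above the PBS maximum, so the libraries overlapped. The list's median log2 difference was 1.51 without cells holding mesothelial markers, 1.45 without cells of at least 30000 UMIs, 1.09 among cells with only Xist UMIs and 3.32 among cells with only Y-linked UMIs. In all other barcodes, which are mostly leukocytes, the same 21 genes had a median of 1.51, with 13 at least 2-fold higher. The difference was thus not particular to the fibroblast-like cells. Endothelial barcodes, chosen by markers, were few, 34 in PBS with 190454 UMIs in all and 6 in 7-day WGP with 34157. The 21 genes were not filtered on their counts in endothelial barcodes, so ratios from few UMIs were not left out. These values therefore cannot decide whether the difference was present in endothelial barcodes. There the 7-day median was -0.35, with 3 genes at least 2-fold higher and 8 lower, and the 3-day median, from 3 barcodes, was 1.10. In the fibroblast-like cells at 3 days, 2 of 21 genes were at least 2-fold higher and 2 lower, with a median of 0.18.

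MHC class I genes, whose products load peptides and show them to CD8 T cells, followed the same order. At 7 days 11 of 12 were at least 2-fold higher, none was lower, and the median was 1.69, against 0.80 in all other barcodes. H2-K1, a classical class I heavy chain, was at 1170.1 CPM (1072 to 1275) in PBS, 1854 CPM (1724 to 1991) at 3 days and 4597 CPM (4369.9 to 4834) at 7 days. B2m, the light chain, was at 1705, 1935 and 4357, Psmb8, a subunit of the immunoproteasome, at 169, 277 and 568, and Tap1, a peptide transporter, at 37.9, 71.2 and 264. Summed over the list, 14 of 16 7-day cells were above the PBS median of 3259 CPM, and the 7-day median was 12858. Without the cells of at least 30000 UMIs the 7-day difference was 1.24 for H2-K1, 1.19 for B2m, 1.81 for Tap1 and 0.20 for Psmb8. The list's median was 1.14 without the cells of at least 30000 UMIs and 0.51 among the cells with only Xist UMIs. At 3 days 1 of 12 genes was at least 2-fold higher, with a median of 0.58.

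**Figure D3:**
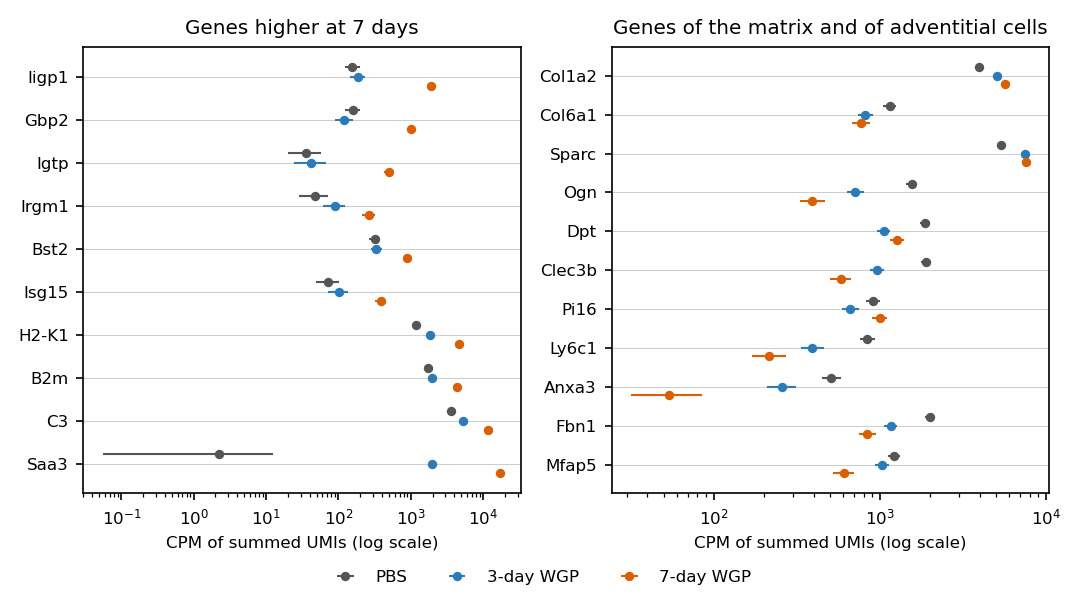
Level of single genes in the summed fibroblast-like cells of each library (CPM on a log scale) with exact 95% Poisson intervals. Left, genes higher at 7 days, with the 7-day points of Iigp1, Gbp2 and Igtp to the right of both others. Right, matrix and adventitial genes, where Clec3b and Fbn1 are lowest at 7 days and Col1a2 is highest.

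Saa3, serum amyloid A3, an acute-phase apolipoprotein made outside the liver, ranked first at both times among the genes higher than in PBS. It had 1 UMI in PBS, 804 at 3 days and 5750 at 7 days, which is 2.23 CPM (0.0564 to 12.4), 1974 CPM (1840.2 to 2116) and 17278 CPM (16834 to 17730.2). These UMIs lay in 1, 7 and 10 cells, and 1 cell gave 74.3% of the 3-day and 1 gave 51.3% of the 7-day UMIs. After thinning, Saa3 was detected in 50% of 7-day members and 4.56% of 7-day B cell barcodes. Free RNA in the droplets, at the share set by acinar transcripts, would give 0.682, 93.4 and 19.4 CPM, under the observed level of all members in each library. Cells of at least 30000 UMIs held 794 of the 804 3-day UMIs and 5365 of the 5750 7-day UMIs. Without them the log2 difference was 1.78 at 3 days and 8.20 at 7 days, compared with 7.34 and 10.47 for all members. The 3-day level of the remaining cells was 31.9 CPM, under the 93.4 CPM of free RNA, so their summed Saa3 was not above background at 3 days. Saa3 was also higher in all other barcodes, by 5.65 and 5.11.

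Other acute-phase and inflammatory transcripts had the same few-cell pattern. Lcn2, lipocalin 2, which withholds iron from bacteria, was at 2.23, 115 and 568 CPM, from 1, 6 and 7 cells. Hp, haptoglobin, which binds free haemoglobin, was at 86.9, 199 and 2206, with 62.9% of the 7-day UMIs in 1 cell. Timp1, an inhibitor of matrix metalloproteinases, was at 26.7, 149.8 and 625 from 8, 11 and 11 cells, but 200 of its 208 7-day UMIs were in the cells of at least 30000 UMIs. Without those cells the 7-day log2 difference was 1.20 for Timp1, compared with 4.11 for all members, 3.35 for Hp compared with 4.51, and 5.68 for Lcn2 compared with 5.56. In the acute-phase and NF-kB list, 7 of 10 measured genes were at least 2-fold higher at 3 days and 4 of 9 at 7 days, with none lower and medians of 1.51 and 0.97. The range over every alternative was 0.10 to 2.31 at 3 days and -0.34 to 2.88 at 7 days.

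C3 was broader. After thinning it was detected in 68.8% of PBS, 90.6% of 3-day and 100% of 7-day members, and in 0.488% of B cell barcodes. Its level within a cell ran from 0 to 10824 CPM with a median of 2951 in PBS, and from 972 to 22496 with 9959.7 in 7-day WGP. Of the 16 7-day cells, 15 were above the PBS median and 8 above the PBS maximum. The log2 difference was 0.57 at 3 days and 1.71 at 7 days, and no cell gave more than 15.8% of the 7-day UMIs. Over the 10 measured complement genes, 5 were at least 2-fold higher at 7 days and 2 at 3 days, with none lower and medians of 0.83 and 0.14. C4b, which acts in the classical pathway, was at 321, 233 and 718 CPM.

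Several chemokines were higher at both times, mostly in few cells. Of 11 measured chemokine genes, 7 were at least 2-fold higher at 3 days and 1 was lower, and 7 were higher at 7 days and 2 were lower, with medians of 2.00 and 1.98. Ccl2, the main ligand of CCR2, was at 11.1 CPM (3.62 to 26) in PBS, 548 CPM (478 to 624) at 3 days and 1370.2 CPM (1247 to 1502) at 7 days, and 1 cell gave 84.8% and 85.7% of the UMIs at the 2 times. Both of these cells held mesothelial markers and at least 30000 UMIs. Ccl7, another CCR2 ligand, was at 22.3, 334 and 586 CPM from 3, 10 and 9 cells, with 188 of the 195 7-day UMIs in the cells of at least 30000 UMIs. Cxcl16, the ligand of CXCR6, was at 37.9, 182 and 210.3, and its largest cell gave only 25.7% and 30%. Cxcl10, a CXCR3 ligand induced by interferon, was at 53.5, 349 and 1454, and 1 cell held 101 of 142 3-day UMIs and 1 held 289 of 484 7-day UMIs, both cells with mesothelial markers. Without the 8 cells of at least 30000 UMIs the chemokine median was 1.02 at 3 days and -0.51 at 7 days, so its direction at 7 days rested on those cells. Among the 21 cells left when barcodes with leukocyte or other mixed markers were dropped, it was -1.06 and -1.43. The difference in Ccl2 was 2.37 and 1.16 without the deepest cells, and -1.20 and 4.15 without the mixed barcodes. Without the deepest cells the 7-day difference was 1.22 for Ccl7, 2.73 for Cxcl10 and 2.04 for Cxcl16. Without the cells holding mesothelial markers the list's median was 0.79 at 3 days, with 5 of 11 genes higher, and 2.19 at 7 days. The 3-day difference was then 1.43 for Ccl2 and 0.09 for Cxcl10.

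Cxcl13 differed most at 3 days. It was at 1809.7 CPM (1687 to 1939) in PBS, 16730.1 CPM (16335 to 17132) at 3 days and 2719 CPM (2545 to 2902) at 7 days. Of the 6813 3-day UMIs, 3696 came from 1 cell and 2641 from another, which had 49088 and 44951 UMIs in all. Without cells of at least 30000 UMIs the log2 difference at 3 days was -0.25, against 3.20 with them. Cxcl13 was detected in 21.2% of thinned members and 0.0930% of thinned B cell barcodes. In PBS, 576 of its 812 UMIs came from 1 cell with mesothelial markers, and the level was 10689 CPM in the 21 cells with such markers and 5544 in the others. Without those 21 cells the PBS level was 37.2 CPM, and the difference from PBS was 8.18 at 3 days and 6.38 at 7 days. Each value rested mostly on 1 cell. At 3 days this was the cell of 3696 UMIs, which had 1 mesothelial marker and no Dpt UMI. At 7 days it was a cell with 644 of the 905 UMIs and no mesothelial marker. The level of 5544 CPM includes both cells.

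**Figure D4:**
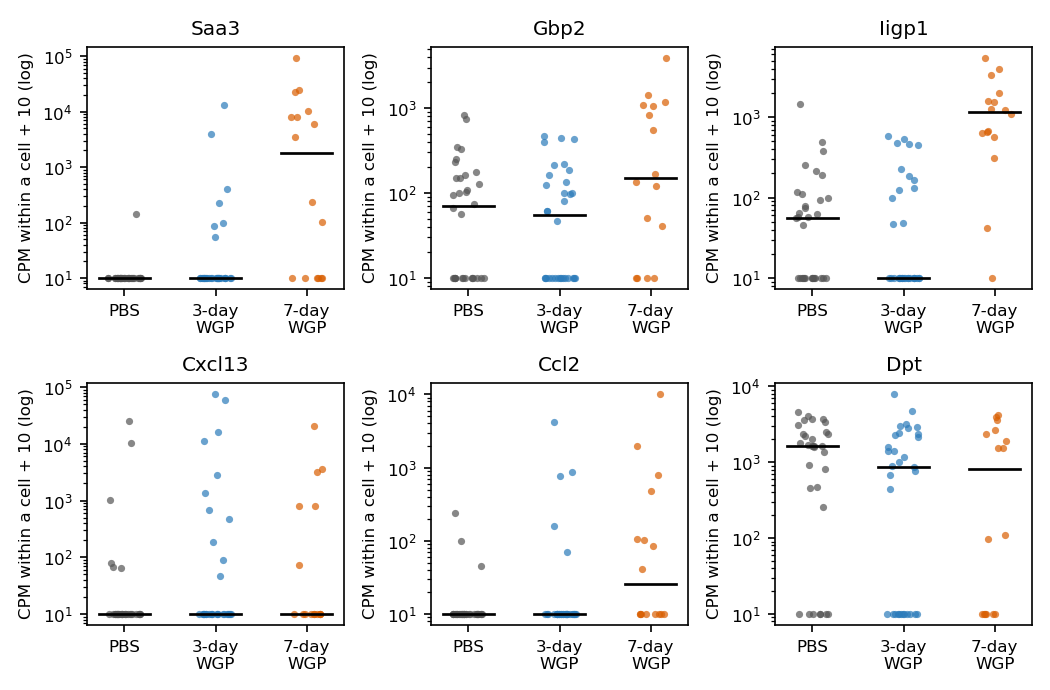
Level of Saa3, Gbp2, Iigp1, Cxcl13, Ccl2 and Dpt in each fibroblast-like cell, as CPM within the cell plus 10 on a log scale, by library, with a line at the median. Of the 16 7-day cells, 14 lie above the PBS median for Iigp1 and 10 for Gbp2, while Saa3, Cxcl13 and Ccl2 are high in few cells and at 0 in most of the 80, though not in most 7-day cells for Saa3.

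MHC class II genes were higher at 7 days in the summed members, with most UMIs in the deepest cells. H2-Aa, a class II alpha chain, was at 60.2 CPM (39.7 to 87.6), 152 CPM (117 to 195) and 1151 CPM (1038 to 1272) in PBS, 3-day WGP and 7-day WGP, and Cd74, the invariant chain, at 158, 263 and 1665. Free RNA would give 15.3 CPM of H2-Aa and 15.7 of Cd74 at 7 days. Cells of at least 30000 UMIs held 339 of the 383 7-day UMIs of H2-Aa and 491 of the 554 of Cd74. The cells with mesothelial markers held 330 and 495 of them. The 7-day log2 difference was 4.05 for H2-Aa and 3.32 for Cd74. Without the deepest cells it was 2.58 and 1.83, and without cells holding mesothelial markers 3.27 and 4.36. H2-Aa was at 1056 CPM in the 21 cells with mesothelial markers and 91.2 in the 59 others, and Cd74 at 1658 and 132. In the list of antigen-presenting fibroblast genes, which also holds Slpi, Saa3, Msln and Upk3b, 5 of 8 were at least 2-fold higher at 7 days. The median was 3.17, and 1.78 without the cells of at least 30000 UMIs. The summed level of the 8 pan-leukocyte markers was 236 CPM in PBS and 294 in 7-day WGP, and its part in the class II difference was not tested. The list's median was -1.68 between the 2 7-day and the 25 PBS cells with only Xist UMIs.

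At 3 days the wider difference was in immediate early and heat shock genes, which also respond to tissue dissociation. Of 16 such genes, 6 were at least 2-fold higher and none lower, with a median of 0.74 and 12073 CPM summed in the median cell, against 4477 in PBS. At 7 days 1 was higher and 1 lower, with a median of -0.20. Hspb1, the small heat shock protein HSP27, was at 111 CPM (82.7 to 147) in PBS, 1203 CPM (1099 to 1315) at 3 days and 1106 CPM (996 to 1225) at 7 days. Cells of at least 30000 UMIs held 332 of its 490 3-day UMIs and 322 of its 368 7-day UMIs. Without them the log2 difference of Hspb1 was 2.08 and 1.85, compared with 3.32 and 3.20. Without cells of at least 30000 UMIs the list's median at 3 days was 0.82. Trem2, a lipid receptor best known from macrophages, was at 4.46, 133 and 63.1 CPM, and at 172 in cells with mesothelial markers against 14.8 in the others. All of its 7-day UMIs were in cells with mesothelial markers and at least 30000 UMIs.

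Genes of adventitial fibroblasts were lower after WGP in the summed members. Of the 12 in the list, all measured, 4 were at least 2-fold lower at 3 days and 8 at 7 days, and none was higher, with medians of -0.94 and -1.23. At 7 days the median was -1.38 without cells holding mesothelial markers, -1.23 without the deepest cells, -1.23 among cells with only Xist UMIs and -1.26 among those with only Y-linked UMIs. With every cell weighing the same it was -0.86, with 5 genes at least 2-fold lower. Summed over the list, the median cell was at 7816 CPM in PBS, 3986 at 3 days and 5612 at 7 days. Of the 16 7-day cells, 6 were above the PBS median, so the libraries overlapped. Without cells holding mesothelial markers the median cell was at 10989, 6331 and 9115 CPM. Clec3b was at 1888 CPM (1763 to 2019) in PBS, 963 CPM (869.7 to 1063) at 3 days and 583 CPM (504 to 671) at 7 days, and 1 of 16 7-day cells was above the PBS median. Anxa3, an annexin, was at 510.4, 258 and 54.1, and Cd34, a sialomucin of vascular and stromal progenitors, at 863, 651 and 418. Pi16, a defining marker of these cells, was at 912, 665 and 998 CPM, but 1 cell gave 88% of the 7-day UMIs and without each library's top cell the 7-day difference was -2.49. Among the 21 cells left without barcodes of mixed markers the list's median was 0.29 at 3 days and -2.44 at 7 days, and among members with mesothelial markers, 6 at 7 days and 7 in PBS, 4 of the 12 genes were higher and 4 lower at 7 days, with a median of 0.52, or -0.07 over those with at least 20 UMIs in these cells. In all other barcodes the list's median at 7 days was -0.06.

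The 8 genes with the firmest lower counts at 7 days included Anxa3, given above, whose 7-day level was under its 70.9 CPM within free RNA, of which 0.316 CPM would be found in members. Nov, the matricellular protein CCN3, had 135 UMIs in PBS, 50 at 3 days and 1 at 7 days, or 301 CPM (252 to 356), 123 CPM (91.1 to 162) and 3.00 CPM (0.0761 to 16.7). Pi15, a peptidase inhibitor, had 56, 25 and 1 UMIs, from 15 and 12 of 32 cells and 1 of 16. Cdkn1c, the cell cycle inhibitor p57, was at 339, 133 and 27 CPM. Both Nov and Cdkn1c stood in the order PBS, 3-day, 7-day with intervals that did not overlap. These intervals cover counting error and not the spread between cells. The Nov UMIs lay in 10, 5 and 1 cells, and 1 PBS cell gave 42 of the 135. Sfrp4, a secreted inhibitor of Wnt, was at 221, 71.2 and 15, and Opcml, a cell adhesion protein, at 136, 39.3 and 6.01. Igfbp3, which binds insulin-like growth factors, had 33 UMIs in PBS and none in 7-day WGP, at least 8.16-fold lower against a floor of 3 counts in the 7-day library. Efhd1, a mitochondrial calcium-binding protein, was at 95.8, 51.6 and 3.00.

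At 3 days the 8 firmest lower genes included Mgll, the lipase that breaks down monoglycerides, at 66.9 CPM (45.1 to 95.5) in PBS and 4.91 CPM (0.595 to 17.7) in 3-day WGP. Fmod, fibromodulin, was at 103 and 12.3 CPM, with 63% of the PBS UMIs in 1 cell. Pcolce2, an enhancer of procollagen processing that was at 0 in cells with mesothelial markers, was at 394, 125 and, at 7 days, 87.1. Akap12, a kinase anchoring protein, was at 348 and 103, Tppp3, a tubulin-binding protein of mesenchymal progenitors, at 493 and 149.8, and Gas7, a growth arrest gene, at 285 and 83.5. Prlr, the prolactin receptor, was at 62.4, 9.82 and 57.1 CPM, and so was low at 3 days only. Uchl1, a ubiquitin hydrolase, was at 53.5, 4.91 and 3.00.

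Fibrillar collagens as a list were near their PBS levels, and other collagens less so. Among 6 fibrillar collagens, none was at least 2-fold different at 3 days and 1 was lower at 7 days, with medians of -0.03 and 0.29. The lower one was Col5a3, a chain of type V collagen, at 435, 314 and 123 CPM. Its 7-day log2 difference was -1.74, and -0.99 without the cells of at least 30000 UMIs, which is not past 2-fold. Among 11 network and associated collagens, 3 were lower and 1 higher at 3 days, and 1 was lower at 7 days, with medians of -0.48 and 0.01. Col14a1, which associates with collagen fibrils, was at 1063, 464 and 204 CPM. Col1a2 was at 3929 CPM (3748 to 4117), 5044 CPM (4828 to 5267) and 5673 CPM (5420.1 to 5935). Its log2 difference at 7 days was 0.53, and 0.11 without the cells of at least 30000 UMIs. The largest cell gave 29.5% of the 7-day UMIs. Elastic fibre genes were lower more often, with 6 of 14 at least 2-fold lower at 7 days, 2 higher and a median of -0.83. Fbn1 was at 2004, 1164 and 841 CPM. Of 8 small leucine-rich proteoglycans, 4 were lower at 7 days and none higher, with a median of -0.85, which was 0.01 without the cells of at least 30000 UMIs. Gsn was at 11097, 6078 and 4826 CPM, a 7-day log2 difference of -1.20 that was -0.09 without those cells. Of 8 measured myofibroblast genes, which mark contractile fibroblasts, 4 were lower at 7 days and none higher, with a median of -1.07 that was 2.19 among cells with only Y-linked UMIs.

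**Figure D5:**
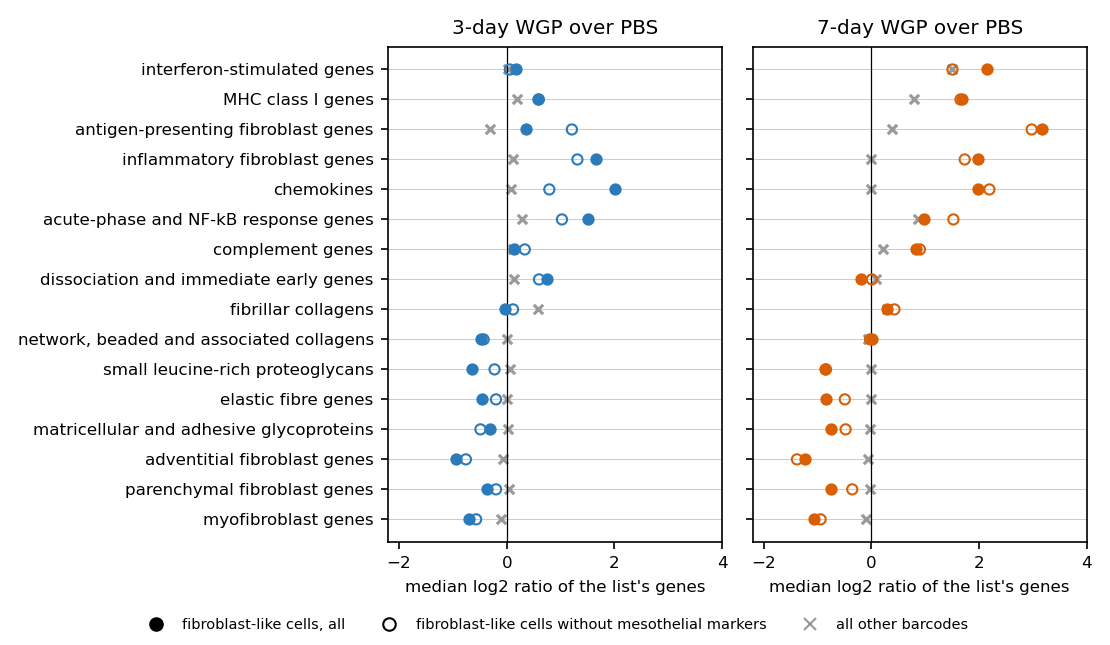
Median log2 difference from PBS of the genes of each list at 3 days (left) and 7 days (right), in all fibroblast-like cells (filled), in those without mesothelial markers (open) and in all other barcodes (crosses). Interferon-stimulated and MHC class I genes lie right of 0 at 7 days in all 3, and adventitial genes lie left of 0 in fibroblast-like cells and near 0 in other barcodes.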

How the data were processed

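Single-cell RNA was measured in 3 libraries, 1 per group taken from the sample labels. The authors deposited unfiltered UMI counts per gene and barcode, not normalized, from 10x Genomics Chromium 3' libraries (v3.1 chemistry). The submitters' processing notes name Cell Ranger 3.1.0, Seurat and build mm10. Depth was 48219246 to 56849043 UMIs a library, and 0 value columns went unused. Members and gene lists (25 lists and 17 marker lists) were chosen with earlier results of these data known, and alternatives for mesothelial, mixed, sex-sorted and deepest cells were added after values were seen.

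UMIs of members were summed per library and divided by the member total (CPM). Intervals are exact 95% Poisson for CPM and Clopper-Pearson for shares. Log2 differences add 10 CPM. They were computed for genes with at least 20 UMIs over both sides, and a gene counts as higher or lower past 2-fold. Named genes were the 15 highest over other barcodes (in at least 10 members), the 8 per direction and time whose interval bound lay farthest from 0 (in at least 5 cells), the 12 per direction between members with and without mesothelial markers, and the most abundant of each list; single values outside these were chosen after they were seen. Shares of cells used counts thinned to 1000 UMIs. Free RNA came from barcodes of at most 100 UMIs. Python 3.11.15, numpy 2.4.6, scipy 1.17.1, pandas 2.3.3 and matplotlib 3.10.9 were used, and the scripts were tested on simulated data.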

Additional observations from a re-analysis of the deposited data

Results flagged for a closer look

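For 3 genes, values were past 2-fold in opposite directions at the 2 times, and the difference between the times was not tested. Igkc, the kappa light chain of antibodies, differed from PBS by 3.34 at 3 days and -1.57 at 7 days on the log2 scale, and Ighm, the mu heavy chain, by 1.95 and -1.68. Both are B cell transcripts. Their observed levels were 136, 1468 and 39.1 CPM for Igkc in PBS, 3-day WGP and 7-day WGP, against 194, 1198 and 78.0 CPM computed for free RNA, and 332 of the 3-day UMIs were in 1 cell. Cilp, a matrix protein of cartilage and fibroblasts, differed by -1.55 at 3 days and 2.19 at 7 days, and all of its 7-day UMIs were in 1 cell.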

How the results depend on the processing

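No paired analysis was possible because each group has 1 library, and leaving out a library removes a comparison with PBS rather than testing it. Over the alternatives that leave out 1 library, 1510 to 1725 genes were at least 2-fold higher in members than in other barcodes and 169 to 181 lower. In all, 22 alternatives were run. Of 880 comparisons of a list median with its value as reported, 821 stayed within 1 log2 unit and 96 changed sign, 12 of them from a median of at least 1 in size, which are given below. Of 923 comparisons of a named gene, 658 stayed within its interval or 1 log2 unit and 20 changed sign. The 7-day median of interferon-stimulated genes ranged from 1.09 to 3.32, that of MHC class I genes from 0.51 to 2.16 and that of adventitial genes from -2.44 to -0.07, or to 0.52 in cells with mesothelial markers where all 12 genes are kept.

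The counts of genes past 2-fold as reported were 1859 higher and 220 lower than in other barcodes, 184 higher and 183 lower at 3 days and 296 higher and 421 lower at 7 days. The rule for mixed barcodes counts Cd74, a class II gene reported above, so that alternative was chosen partly on its level. Without barcodes of mixed markers, which leaves 11, 6 and 4 cells, members were 0.210% of PBS barcodes, 0.123% of 3-day WGP barcodes and 0.0958% of 7-day WGP barcodes. There, the counts were 943 higher than in other barcodes, 74 lower than in other barcodes, 106 higher at 3 days, 135 higher at 7 days and 262 lower at 7 days. The log2 values that turned direction there were -0.50 for the median of inflammatory fibroblast genes at 3 days, -1.06 for the median of chemokines at 3 days, -1.20 for Ccl2 at 3 days, -0.72 for Lcn2 at 3 days, -0.72 for Cxcl13 at 3 days, -0.0069 for Igkc at 3 days, -1.64 for Ccl7 at 3 days, -1.19 for the median of inflammatory fibroblast genes at 7 days, -1.43 for the median of chemokines at 7 days, -0.72 for Lcn2 at 7 days, -2.17 for Hp at 7 days and -0.59 for Ccl7 at 7 days. With 50 CPM added, the counts were 725 higher than in other barcodes, 109 lower than in other barcodes, 64 higher at 3 days, 36 lower at 3 days, 161 higher at 7 days and 118 lower at 7 days. With 1 CPM added, the counts were 344 lower at 3 days. With genes of at least 10 UMIs, so that more were compared, the counts were 347 lower than in other barcodes, 294 higher at 3 days, 299 lower at 3 days and 649 lower at 7 days. With genes of at least 1 UMI, the counts were 808 lower than in other barcodes, 365 higher at 3 days, 417 lower at 3 days, 599 higher at 7 days and 832 lower at 7 days. Chosen after the data were seen, among the 21 cells with mesothelial markers, the counts were 1053 higher than in other barcodes, 84 lower than in other barcodes and 187 lower at 7 days. The log2 values that turned direction there were -0.29 for Dpt over other barcodes, 0.81 for Tppp3 at 3 days, 0.14 for the median of myofibroblast genes at 7 days, 0.76 for Nov at 7 days and 0.76 for Sfrp4 at 7 days. Chosen likewise, without mixed barcodes but with the B cell list not used for them, the counts were 96 higher at 3 days. The log2 values that turned direction there were -3.09 for Cxcl13 at 3 days and -0.16 for the median of chemokines at 7 days. Chosen likewise, without the cells of at least 30000 UMIs, the counts were 114 higher at 3 days. The log2 values that turned direction there were -0.25 for Cxcl13 at 3 days and -0.51 for the median of chemokines at 7 days. Chosen likewise, among cells with only Xist UMIs, the counts were 131 lower than in other barcodes, 420 lower at 3 days and 781 lower at 7 days. The log2 values that turned direction there were -0.081 for the median of inflammatory fibroblast genes at 3 days, -0.80 for the median of chemokines at 3 days, -0.34 for Lcn2 at 3 days, -2.78 for Igkc at 3 days, -1.68 for the median of antigen-presenting fibroblast genes at 7 days and -1.45 for H2-Aa at 7 days. Chosen likewise, among cells with only Y-linked UMIs, the counts were 1185 higher than in other barcodes, 101 lower than in other barcodes, 341 higher at 3 days, 501 higher at 7 days and 206 lower at 7 days. The log2 values that turned direction there were -0.22 for the median of inflammatory fibroblast genes at 3 days, 1.53 for Fmod at 3 days, 0.49 for Akap12 at 3 days, 1.29 for Gas7 at 3 days and 2.19 for the median of myofibroblast genes at 7 days.

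The precision is set by the number of cells, 16 to 32 a library, and by 3 measured facts whose part was not tested: the deepest 7-day cells, the unequal mix of sexes and the mesothelial transcripts in 21 cells. A gene with under 20 UMIs over both libraries was not compared.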

Other observations

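Transcription factors of fibroblasts were well represented. Of 20 measured, 18 were at least 2-fold higher in members than in other barcodes. Nfib was at 488 CPM against 5.65 elsewhere, Klf4 at 587 against 112 and Ebf1 at 411 against 194. At 7 days 5 of 19 were at least 2-fold lower than in PBS and none was higher, with a median of -0.61. Wt1, a factor of mesothelium and of organ capsules, was at 398 CPM in the 21 cells with mesothelial markers and 129 in the 59 others. All 18 measured growth factors and morphogens were higher in members than elsewhere. Igf1 was at 624, 592 and 820.3 CPM in PBS, 3-day WGP and 7-day WGP, and Wnt4 at 779.8 in cells with mesothelial markers and 51.7 in the others. Of 23 measured growth factor and cytokine receptors, 14 were higher in members. Il6st, the shared receptor chain gp130, was at 209.5, 182 and 255 CPM, Ifngr1, a chain of the interferon-gamma receptor, at 120.4, 123 and 126, and Ifnar2, of the type I interferon receptor, at 86.9, 138 and 144.

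Of the genes that sense beta-glucan, Itgam had 4 UMIs in all members, Syk 3, and Card9 and Clec4n none, while Clec7a and Clec6a were not analysed here. Collagen-modifying enzymes were led by Serpinh1, at 1509, 1719 and 1875 CPM, and their medians were -0.34 at 3 days and -0.32 at 7 days. Metalloproteinases and inhibitors had medians of 0.16 and -0.22, and parenchymal fibroblast genes -0.36 and -0.74. Cxcl12, one of the latter, was at 412, 246 and 986 CPM. Among retinoid and lipid genes, Fabp4, a fatty acid carrier of adipocytes and endothelium, had 1368 of its 1421 7-day UMIs in 1 cell. Of 4 measured cell cycle genes, 3 were at least 2-fold higher at 7 days, and 1 cell with mesothelial markers held 43 Top2a and 16 Mki67 UMIs. Without each library's top cell for each gene, 1 of the 4 was higher and the median was 0.21, compared with 3.36.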
